A study of Mus musculus with 2 samples.

Results

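Erythroid cells at the onset of adult globin expression were studied in single-cell transcriptomes of mouse bone marrow, in hypoxia against control. The cells were chosen by their measured values, on a scale of UMIs (unique molecules counted) of a gene per 10000 UMIs of the cell, written CP10K. Members held 20 or more but under 200 CP10K of Hba-a1, Hba-a2, Hbb-bs and Hbb-bt together, at least 5 CP10K of Car2 and under 20 CP10K of Mcpt8 plus Prss34, after cells with 20% or more mitochondrial UMIs were dropped. This window held 1001 of 10342 kept cells, of which 795 of 6392 came from the hypoxia library and 206 of 3950 from the control library.

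The marrow came from ICR mice, an outbred stock in which animals can carry different alleles, aged 7 to 8 weeks by the labels, and was cleared of lineage-positive cells on a magnetic column before capture on the BD Rhapsody microwell platform. The hypoxia mice had been held for 13 days in a chamber at 52.93 kPa, equated in the labels with an altitude of 5000 m, with oxygen given as 19.5%. The control mice were killed when they reached the study site, so time in the facility, handling and hypoxia cannot be told apart. Each group had 1 library, how many mice went into each is not stated in the labels, and no difference between the libraries has a replicate check.

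Red cell precursors pass from globin-negative colony-forming progenitors into erythroblasts under the stem cell factor receptor Kit and then the erythropoietin receptor Epor, with Gata1, Tal1 and Klf1 as the central transcription factors. Globin transcription begins while the cells still divide rapidly, and haem synthesis, iron uptake and the membrane skeleton are built up along with it. Kit and Myb, which keep progenitors immature, are shut off around the same step.

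Depth differed between the libraries. Hypoxia window cells had a median of 22864 UMIs and 4826 detected genes, against 31879.5 UMIs and 5429 genes in control window cells. After thinning to 10000 UMIs per cell the medians were 3346.5 and 3321 genes in hypoxia and control cells. Summed over the window, the hypoxia library gave 19139265 UMIs and the control library 6871822 UMIs. The tables shared 23 cell index numbers. All intervals printed are 95% intervals that cover counting error only and treat each UMI or cell as independent. They leave out variation between cells, animals and preparations.

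The named markers were present in both libraries. Slc4a1, the band 3 anion exchanger of red cells, was not used by the rule, and it had a UMI in 88.9% of hypoxia window cells and 85.4% of control window cells. In granulocyte-lineage cells, gated on 50 or more CP10K of Mpo, Elane and Prtn3 with Car2 under 5 CP10K, Slc4a1 had a UMI in 3.93% of hypoxia cells and 0.907% of control cells at median depths of 23556 and 27549 UMIs. No cell of that gate reached 20 CP10K of adult globin, among 865 hypoxia cells and 441 control cells. At 10000 UMIs per cell, Slc4a1 was found in 81.8% (78.9 to 84.4%) of hypoxia and 76.7% (70.3 to 82.3%) of control window cells. All 7 erythroid markers were present in the window, with a summed level of 4328 CPM (100 times the CP10K of the UMIs pooled over window cells) in hypoxia and 3852 CPM in control, and every member held at least 5 CP10K of them.

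Markers of most other cell types were low but not all at 0. The 10 basophil and mast cell markers summed to 190.0 CPM in hypoxia and 116.1 CPM in control window cells, of which Srgn, a granule proteoglycan also made by many other blood cells, gave 177 and 113 CPM. Of the 10, 2 were at 0 in hypoxia (Gzmb and Cma1) and 3 in control. The 10 granulocyte markers summed to 147 CPM in hypoxia and 133 CPM in control, led by Mpo at 59.5 and 58.9 CPM, and the 10 monocyte markers to 59.2 and 42.6 CPM. Macrophage markers summed to 1.31 CPM in hypoxia and 0.437 CPM in control. The 6 stem cell markers summed to 225 CPM in hypoxia and 133 CPM in control window cells, of which Mllt3 gave 213 and 129 CPM. Over all kept cells the stem markers summed to 272 CPM in hypoxia and 186 CPM in control. Any UMI of Mcpt8 or Prss34, both basophil proteases that the rule limits, was found in 443 hypoxia members and 49 control members, at no more than 9.69 and 2.37 CP10K. Scrublet marked 25 hypoxia members (3.15%) and 5 control members (2.43%) as doublets. Leaving out cells with 5 or more CP10K of basophil, monocyte, granulocyte, megakaryocyte and eosinophil markers together, Srgn aside, kept 773 hypoxia and 201 control cells. Values without the cells left out are given where they bear on a result. Stem markers were not part of this limit, and 27 hypoxia members and no control member held 5 or more CP10K of them.

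Globin onset cells made up a larger share of the hypoxia library. The window held 12.4% (11.6 to 13.3%) of kept hypoxia cells and 5.22% (4.54 to 5.96%) of kept control cells, a ratio of 2.385 (2.044 to 2.793). Earlier globin-low cells, with under 20 CP10K of globin, Klf1 at 1 or more and Gata2 under 0.5 CP10K, made up 30.3% of hypoxia and 40.4% of control cells, a ratio of 0.748 (0.70 to 0.8001). Later globin-high cells, at 200 CP10K or more, made up 3.504% of hypoxia and 1.06% of control cells, a ratio of 3.30 (2.36 to 4.70). Among the 3 stages alone the window held 26.9% of hypoxia and 11.2% of control cells. Each share depends on the others and on what lineage depletion removed, so fewer cells of one kind and more of another cannot be told apart.

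**Figure D1:**
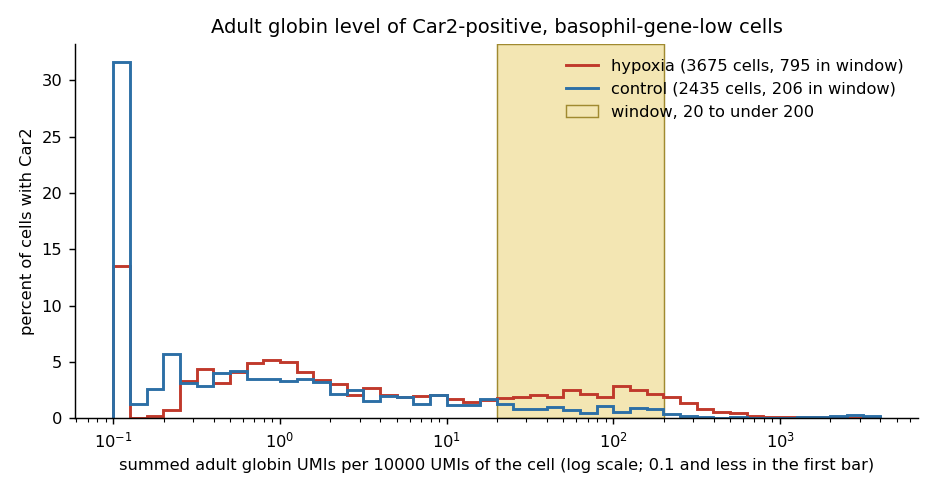
Percent of cells with Car2 at 5 or more CP10K and Mcpt8 plus Prss34 under 20 CP10K (y axis) by their summed adult globin (x axis, CP10K, log scale), for 3675 hypoxia cells and 2435 control cells. The shaded window of 20 to under 200 CP10K holds 795 hypoxia and 206 control cells, and both lines run through its edges without a gap.

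The window edges cut a continuous distribution. In hypoxia 70 cells lay from 15 to 20 CP10K and 65 from 20 to 25 CP10K, and 52 and 30 control cells lay there. At the upper edge 38 hypoxia and 15 control cells lay from 180 to 200 CP10K, and 33 hypoxia and 4 control cells from 200 to 220 CP10K. The nearest hypoxia cells on either side of the edges had 19.97 and 20.06, and 199.7 and 200.2 CP10K, and the nearest control cells 19.95 and 20.06, and 199.9 and 204.4 CP10K. Of the cells within the globin range, the Car2 limit removed 1 hypoxia cell and 2 control cells. The basophil limit removed 7 hypoxia cells and no control cell.

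Cells also sat at somewhat different places within the window. The median summed globin was 70.3 CP10K in hypoxia and 57.5 CP10K in control members. The bins from 20 to 50, from 50 to 100 and from 100 to 200 CP10K held 277, 241 and 277 hypoxia cells, and 94, 57 and 55 control cells. The percent of window cells at 100 or more CP10K globin was 34.8% (31.5 to 38.3%) in hypoxia and 26.7% (20.8 to 33.3%) in control, and the interval of the ratio, 0.974 to 1.776, includes 1. For some genes that differ steeply across the window, values with equal weight to the 3 bins are also given.

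The globin genes that defined the window were compared in their upstream sequence. The 250 bases before each gene's start are shown for both kinds of chain and for Alas2, the first enzyme of erythroid haem synthesis. Globin set the window, and Alas2 was among the genes with the largest rise from the first to the last globin bin. The sequences are RefSeq's on GRCm38.p6, 5′ to 3′ on the gene's strand. Capitals mark 3 motifs: the GATA factor motif on either strand, which was searched as these letters with A or T before them and A or G after them, CACCC, to which Klf1 binds, on either strand, and TATAAA on the gene's strand.
Hba-a1 (chr11:32283422-32283671, plus strand): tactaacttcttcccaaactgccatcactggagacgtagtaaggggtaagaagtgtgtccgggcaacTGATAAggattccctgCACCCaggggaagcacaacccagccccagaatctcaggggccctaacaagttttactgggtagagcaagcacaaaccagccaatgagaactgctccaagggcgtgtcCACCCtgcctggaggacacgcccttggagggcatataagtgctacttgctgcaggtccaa
Hbb-bs (chr7:103827929-103828178, minus strand): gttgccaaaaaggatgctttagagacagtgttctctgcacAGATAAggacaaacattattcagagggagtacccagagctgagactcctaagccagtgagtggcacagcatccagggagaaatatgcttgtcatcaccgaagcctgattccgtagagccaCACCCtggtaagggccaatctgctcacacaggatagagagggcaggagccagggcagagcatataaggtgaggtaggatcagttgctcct
Hbb-bt (chr7:103813924-103814173, minus strand): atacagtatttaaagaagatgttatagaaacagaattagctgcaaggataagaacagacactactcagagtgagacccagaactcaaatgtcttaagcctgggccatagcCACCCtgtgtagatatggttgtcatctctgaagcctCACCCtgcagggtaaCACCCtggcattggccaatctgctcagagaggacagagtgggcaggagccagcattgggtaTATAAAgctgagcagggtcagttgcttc
Alas2 (chrX:150547167-150547416, plus strand): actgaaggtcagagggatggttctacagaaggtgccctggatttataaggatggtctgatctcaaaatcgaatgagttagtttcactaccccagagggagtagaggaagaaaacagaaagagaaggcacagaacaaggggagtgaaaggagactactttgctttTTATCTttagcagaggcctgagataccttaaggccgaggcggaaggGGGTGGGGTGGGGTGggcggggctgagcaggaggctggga
The Hba-a2 sequence shares an unbroken run of 247 of its 250 bases with that of Hba-a1, offset by the annotated start. The Hbb-bs and Hbb-bt sequences were identical at 178 of 243 aligned bases (73.3%). A GATA match lies 210 to 205 bases before the start of Hbb-bs and 183 to 178 bases before that of Hba-a1, and the motif with these flanking letters was not found in the Hbb-bt window. CACCC was found 1 time before Hbb-bs, 3 times before Hbb-bt, 2 times before Hba-a1 and, on the other strand, 3 times before Alas2. Of 32851 promoters of this length, 26.5% hold the GATA motif, 52.0% CACCC and 7.59% TATAAA, so a match here is a description and not a binding site.

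The rule used the sum of the 4 globins, and the split between them differed between libraries. Alpha chains (Hba-a1 and Hba-a2) gave 58.6% (58.4 to 58.9%) of adult globin UMIs in hypoxia members, 85621 of 146085, and 52.4% (51.9 to 52.9%) in control members, 24690 of 47122. The alpha share was 62.0, 59.7 and 57.0% in successive bins of hypoxia cells, and 57.1, 52.5 and 49.9% in those of control cells. The share thus lay lower in each later bin of both libraries, and the hypoxia share was above that of control in every bin. The same held outside the window, with 62.9% in hypoxia and 61.0% in control globin-low cells, and 53.7% in hypoxia and 46.2% in control globin-high cells.

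Within the beta chains the libraries stood far apart in the window. Hbb-bt gave 16.9% (16.6 to 17.2%) of Hbb-bs plus Hbb-bt UMIs in hypoxia members and 44.3% (43.6 to 44.9%) in control members. It gave 13.4, 14.2 and 19.1% in the 3 successive bins of hypoxia cells, and 44.4, 43.3 and 44.7% in those of control cells. Outside the window Hbb-bt gave 19.5% in hypoxia and 50.05% in control globin-low cells. In globin-high cells it gave 34.1% in hypoxia and 46.8% in control, so the libraries lay closer there than in the window. Among members with at least 20 beta UMIs, the median cell had 10.2% Hbb-bt in hypoxia (720 cells, quartiles 2.69 and 23.1%) and 43.1% in control (200 cells, quartiles 30.9 and 55.9%). Under 5% Hbb-bt was found in 267 of these hypoxia cells and in 1 control cell. Hba-a2 gave 8.21% of alpha UMIs in hypoxia and 1.31% in control members. Reads of near-identical globin copies can be assigned to the wrong copy, alleles of the outbred stock can shift such an assignment, and neither was tested, so the splits between copies are uncertain.

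**Figure D2:**
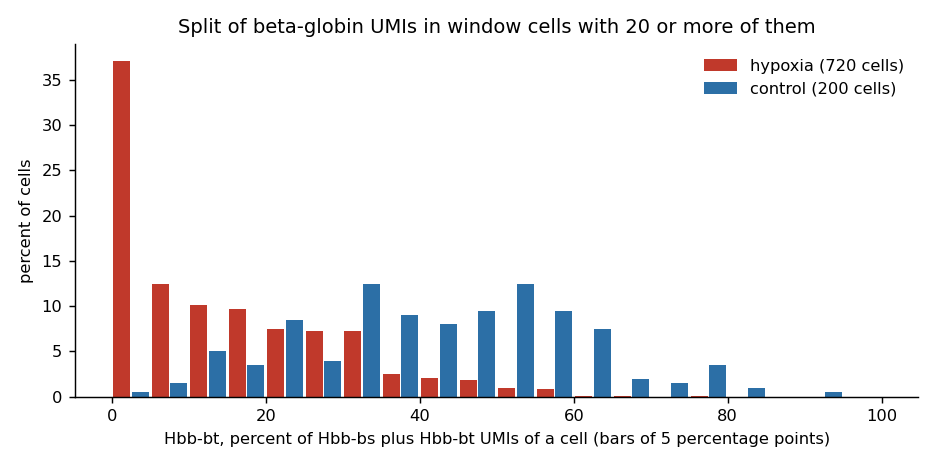
Percent of window cells (y axis) by the share of Hbb-bt among their Hbb-bs and Hbb-bt UMIs (x axis, percent, bars of 5 points), for 720 hypoxia and 200 control cells with 20 or more beta-globin UMIs. The first bar, under 5%, holds 267 hypoxia cells and 1 control cell, and the medians are 10.2% in hypoxia and 43.1% in control.

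Kit and Myb were already low at globin onset. Kit stood at 19.4 CPM in hypoxia and 14.99 CPM in control window cells, against 250.2 CPM in hypoxia and 166 CPM in control globin-low cells. Myb, a progenitor transcription factor, stood at 91.5 CPM in hypoxia and 77.9 CPM in control window cells, against 582 and 447 CPM in globin-low cells of hypoxia and control. Ccnd3, a D-type cyclin, was at 1608 CPM in hypoxia and 1227 CPM in control window cells. In globin-low cells Ccnd3 was at 247 CPM in hypoxia and 256 CPM in control. Mki67, a gene of dividing cells, was at 1334 CPM in hypoxia and 1127 CPM in control window cells, and at 564 and 523 CPM before it. Ikzf1, a lymphoid and progenitor transcription factor, was at 412 CPM in hypoxia and 435.4 CPM in control window cells, and at 454 and 440.3 CPM in globin-low cells of hypoxia and control. Kit and Myb were thus far lower, and Ccnd3 and Mki67 higher, than one stage earlier in both libraries.

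Across the window itself the libraries shared their direction. Of 3497 genes at 50 CPM or more in a bin of both libraries, 61 were at least 1.5-fold higher and 95 at least 1.5-fold lower in the last bin than in the first in both, with 10 CPM added, and none passed 1.5-fold in opposite directions. The libraries alone gave 104 higher and 172 lower genes in hypoxia, and 87 higher and 138 lower genes in control. Since the bins were cut on globin within each library, these genes follow the rule's own axis and are given as a description. Genes were ranked by the smaller of their changes in the 2 libraries.

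Slc4a1 differed most between the first and last bin. It had 151, 563 and 1413 CPM in successive bins of hypoxia cells, and 112, 420.2 and 986 CPM in those of control cells. Alas2 had 34.0, 105 and 271 CPM in hypoxia bins, and 42.3, 106 and 189 CPM in control bins. Fn3k, a kinase that repairs glycated proteins, had 12.5, 39.5 and 96.7 CPM in hypoxia bins, and 18.6, 45.6 and 105 CPM in control bins. Sox6, a transcription factor of definitive erythroid maturation, had 79.7, 144 and 226 CPM in hypoxia bins, and 56.9, 105 and 159 CPM in control bins. Epb42, which links band 3 to the membrane skeleton, Slc6a9, a glycine carrier that feeds haem synthesis, the anti-proliferative gene Btg2, Cd59a, which guards against complement, Acp5 and Cdc25b completed the 10 genes highest by this rank. Of the 8 of these with a promoter entry, 3 held the GATA motif and 4 CACCC, on counts too small to set beside the shares of all promoters.

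The genes lowest by this rank included metallothioneins and growth genes. Mt2, which binds zinc and copper, had 660, 469 and 251 CPM in successive bins of hypoxia cells, and 668, 402 and 190 CPM in those of control cells. Srm, the spermidine synthase, had 60.9, 36.8 and 13.8 CPM in hypoxia bins, and 107.0, 76.7 and 39.0 CPM in control bins. Cdk6, a kinase of early G1, had 228, 158 and 83.5 CPM in hypoxia bins, and 278, 154 and 98.6 CPM in control bins. Mt1, Fpgs, Cnn3, Cluh, Sdad1, Lgals9 and Eif1a were the others. By list, nucleolar ribosome biogenesis had the lowest median change over the window, a log2 change of −0.80 in hypoxia and −0.68 in control, with 16 and 12 of 20 members at least 1.5-fold lower, beside 172 and 138 of the 3497 genes. The medians of all 7500 measured genes were −0.06 in hypoxia and −0.07 in control. Red cell membrane genes had medians of 0.48 in hypoxia and 0.31 in control, and haem synthesis genes 0.41 and 0.38.

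**Figure D3:**
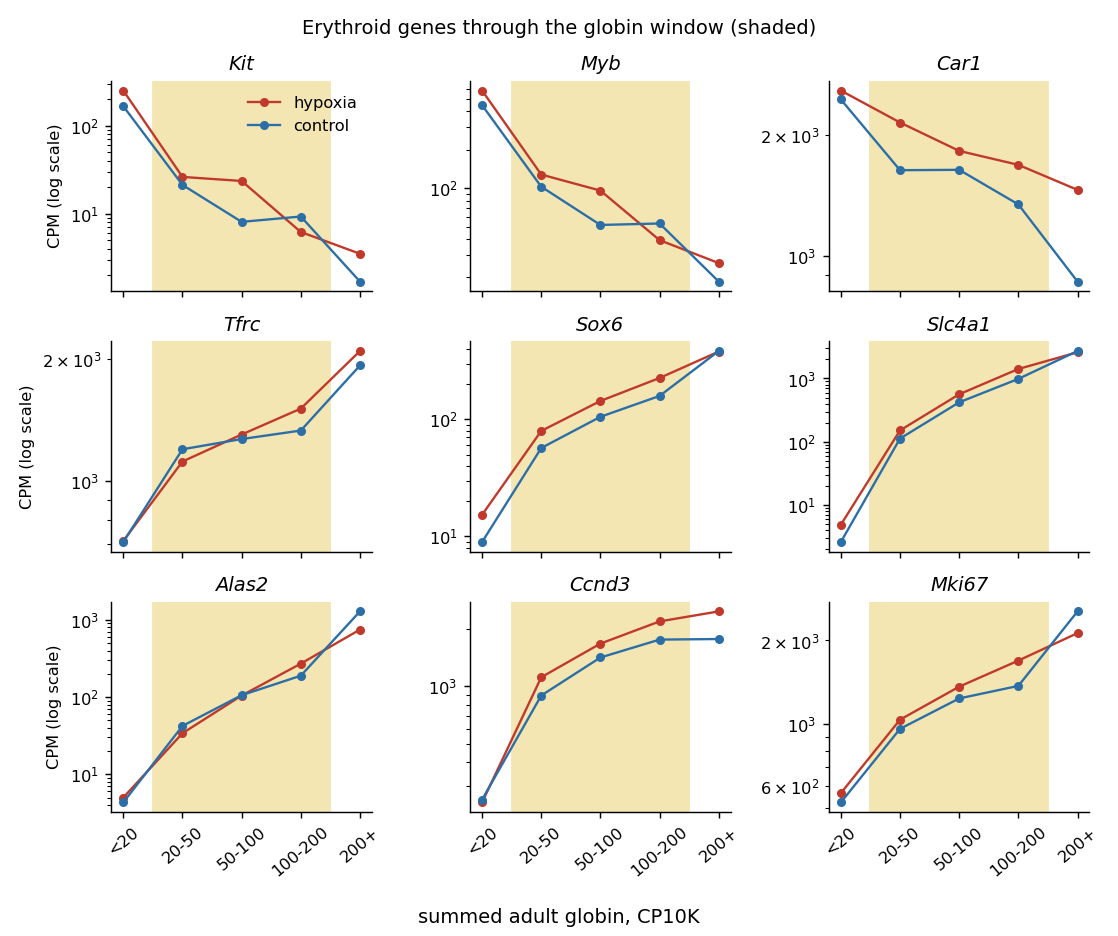
Level of 9 erythroid genes (y axis, CPM, log scale) in globin-low cells, the 3 bins of the window (shaded) and globin-high cells, in order of summed globin (x axis, CP10K), in hypoxia and control. Kit and Myb lie lower and Slc4a1, Alas2, Sox6 and Ccnd3 higher in window cells than in globin-low cells in both libraries.

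Hypoxia and control window cells were then compared gene by gene. A gene was measured where it had 50 or more UMIs over both libraries and 10 CPM or more in one, and was called higher or lower where the log2 ratio of hypoxia over control, with 10 CPM added to each, reached 1.5-fold and the interval of the ratio excluded 1. With 1 library a group this is a size limit and not a test. Leaving out the 7 genes of the rule, 259 of 7500 measured genes (3.45%) were higher and 168 (2.24%) lower, or 5.69% in either direction. With trimmed-mean (TMM) scaling, which moved all log2 ratios by −0.06, the split was 197 higher and 226 lower, so the balance of higher and lower calls is not settled. The median log2 ratio of all measured genes was 0.03.

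**Figure D4:**
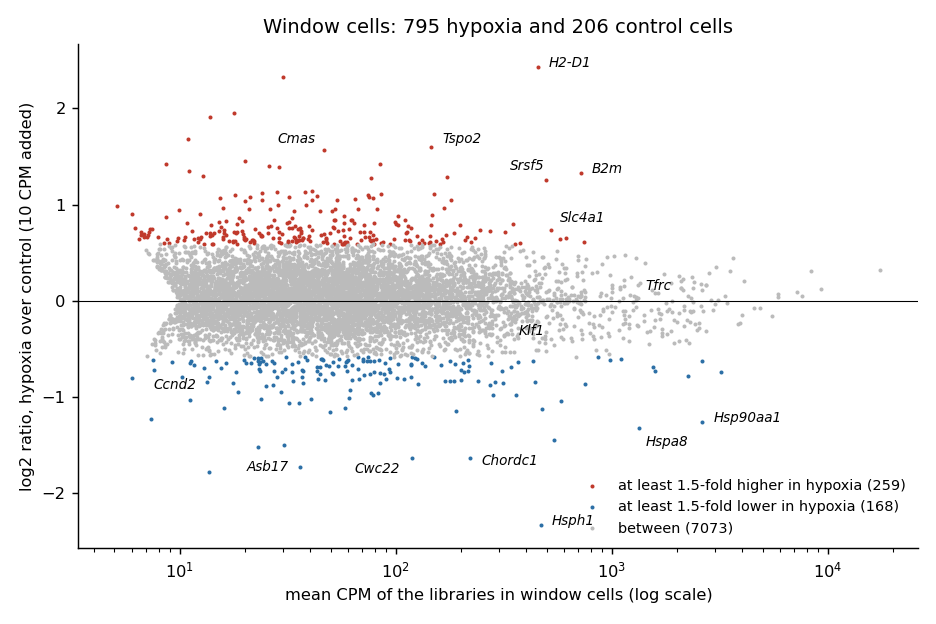
Log2 ratio of hypoxia over control with 10 CPM added (y axis) against the mean level of both libraries (x axis, CPM, log scale) for 7500 genes measured in window cells. H2-D1 stands highest among the labelled genes and Hsph1 lowest, while Tfrc and Klf1 lie near 0.

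The core erythroid regulators differed little between the libraries. None of the 16 measured regulators passed 1.5-fold with 10 CPM added, beside 5.69% of all measured genes called either way. Their median log2 ratio was 0.02 (−0.03 with TMM factors), beside 0.03 for all genes. Gata1 was at 469.5 CPM in hypoxia and 359.9 CPM in control, a ratio of 1.304 (1.25 to 1.36). Klf1 was at 319 CPM in hypoxia and 370.4 CPM in control, a ratio of 0.861 (0.822 to 0.902), and Tal1 at 317 and 418 CPM, a ratio of 0.759 (0.726 to 0.793). Gata1 thus lay above control and Klf1 and Tal1 below it, each by less than 1.5-fold. Sox6 at 143 CPM in hypoxia and 92.4 CPM in control, and Nfe2, a globin locus activator, at 101.1 and 67.4 CPM had the highest ratios of the list, 1.55 (1.42 to 1.69) and 1.501 (1.36 to 1.66). Both were under the limit on the log2 scale with 10 CPM added, where Sox6 had 0.58, or 0.73 and past the limit in cells thinned to 10000 UMIs, and 0.45 with equal weight to the bins. Zfpm1, the Gata1 cofactor FOG1, at 223 CPM in hypoxia and 309 CPM in control, had the lowest.

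Red cell membrane genes leaned toward higher values in hypoxia. Of 22 measured, 3 were higher and none lower, beside 3.45% and 2.24% of all measured genes, and the median log2 ratio was 0.21. Tmod1, which caps actin filaments of the membrane skeleton (chromosome 4, 46038935 to 46116032, GRCm38), was at 36.8 CPM in hypoxia and 11.5 CPM in control, a ratio of 3.20 (2.53 to 4.09), and its log2 ratio was 1.12, or 0.97 with equal weight to the bins. Slc4a1 (chromosome 11, 102348824 to 102366203) was at 654 CPM in hypoxia and 388 CPM in control, a ratio of 1.69 (1.62 to 1.76). Its log2 ratio of 0.74 became 0.48 with equal weight to the bins, under the 1.5-fold limit.

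Iron genes were close to the background, and haem synthesis genes leaned a little toward higher values in hypoxia. Of 14 haem genes 1 was lower and none higher, beside 2.24% and 3.45% of all measured genes. Their median log2 ratio was 0.19, beside 0.03 for all genes, and 85.7% of them lay above that all-gene median. Tmem14c, a mitochondrial carrier needed for haem formation, was the lower one, at 773 CPM in hypoxia and 1189 CPM in control, a ratio of 0.650 (0.633 to 0.668). Alas2 was at 126 CPM in hypoxia and 91.8 CPM in control, and its log2 ratio of 0.42 became 0.26 with equal weight to the bins. Fech, which inserts iron into the ring, was at 638 CPM in hypoxia and 469 CPM in control, a ratio of 1.36 (1.31 to 1.42). Of 20 iron genes 1 was higher and none lower, with a median log2 ratio of 0.03. Tfrc, the transferrin receptor, was at 1291 CPM in hypoxia and 1246 CPM in control, and Steap3, its ferrireductase partner, at 407 and 591 CPM.

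Tspo2, a cholesterol-binding membrane protein of erythroid cells, had the largest ratio of the terminal maturation list. It was at 224.9 CPM in hypoxia and 67.4 CPM in control (chromosome 17, 48447907 to 48451522), a ratio of 3.34 (3.03 to 3.68). At 10000 UMIs per cell it had a UMI in 86.8% of hypoxia and 53.9% of control members (97.4% and 85.4% unthinned), beside 2.36% and 0.231% of granulocyte-gate cells. In globin-low cells the ratio was 4.42 (4.24 to 4.60), from 191 CPM in hypoxia and 43.2 CPM in control. Of the 24 measured members of this list Tspo2 and Ypel4 were higher and none lower, beside 3.45% and 2.24% of all measured genes. Bnip3l, a mitophagy receptor of maturing red cells, was at 303 CPM in hypoxia and 217 CPM in control, a ratio of 1.40 (1.32 to 1.48).

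The erythropoietin pathway was mixed. Epor was at 179.9 CPM in hypoxia and 175.5 CPM in control, a ratio of 1.03 (0.960 to 1.10). Jak2, the kinase bound to this receptor, was at 99.0 CPM in hypoxia and 57.8 CPM in control, a ratio of 1.71 (1.54 to 1.91), and went under the 1.5-fold limit in thinned cells. Stat5b was at 57.5 CPM in hypoxia and 36.7 CPM in control, and Stat5a at 59.3 and 40.6 CPM. Pim1, a STAT5-induced survival kinase, was at 76.2 CPM in hypoxia and 119 CPM in control, a ratio of 0.639 (0.586 to 0.697). Ccnd2, a D-type cyclin, was at 6.79 CPM in hypoxia and 20.1 CPM in control, a ratio of 0.338 (0.264 to 0.433), and Cish at 8 UMIs in hypoxia and 12 in control was too low to be measured. In globin-low cells Pim1 was at 38.4 CPM in hypoxia and 117 CPM in control. Over the 12 measured members 1 was higher and 1 lower, beside 3.45% and 2.24% of all measured genes, with a median log2 ratio of 0.12.

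Cytosolic chaperones formed the list with the lowest median. Of 21 measured members 14 were lower and none higher, against 2.24% of all measured genes lower, and the median log2 ratio was −0.85. Hsph1, an HSP110 nucleotide exchange factor (chromosome 5, 149614287 to 149636376), was at 149 CPM in hypoxia and 792 CPM in control, a ratio of 0.188 (0.180 to 0.197). Dnaja1, an HSP40 cochaperone, was at 284 CPM in hypoxia and 794 CPM in control, and Hspa8, the constitutive HSP70, at 754 and 1907 CPM. Hsp90aa1, the inducible HSP90, was at 1538 CPM in hypoxia and 3716 CPM in control, a ratio of 0.414 (0.407 to 0.421). Chordc1, an HSP90 cochaperone, was at 103 CPM in hypoxia and 340 CPM in control, a ratio of 0.303 (0.285 to 0.321). Hsph1 had 177, 157 and 104 CPM in successive bins of hypoxia cells, and 829, 758 and 750 CPM in those of control cells, so no bin brought the libraries together. Cdc37, a kinase cochaperone, was at 245.5 CPM in hypoxia and 237.5 CPM in control, and Dnajb4 at 64.9 and 59.2 CPM. The median of the list was −0.67 in globin-low cells and −0.85 in globin-high cells.

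Endoplasmic reticulum chaperones lay lower too. Of 23 unfolded protein and integrated stress genes 7 were lower and none higher, against 2.24% of all measured genes lower, with a median log2 ratio of −0.42. Hspa5, the lumenal HSP70 known as BiP, was at 378 CPM in hypoxia and 788 CPM in control, a ratio of 0.479 (0.463 to 0.497). Hsp90b1, the lumenal HSP90, was at 295 CPM in hypoxia and 653 CPM in control, and Sdf2l1 at 19.5 and 51.8 CPM. Eif2ak1, the haem-regulated kinase of the translation factor eIF2, was at 249 CPM in hypoxia and 196 CPM in control, a ratio of 1.28 (1.2 to 1.36). The TRiC chaperonin had 1 lower subunit of 7, Cct7, at 229.5 CPM in hypoxia and 388 CPM in control. Immediate early genes, which react to tissue handling, had a median of −0.31 in hypoxia over control, or −0.04 with no minimum level, and the part of handling in these differences was not tested.

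Genes of ribosome production were lower in the hypoxia library. All 20 measured nucleolar genes lay under 0, and 5 of them were past the limit, against 2.24% of all measured genes. Their median log2 ratio of −0.38, beside 0.03 for all genes, ranged from −0.45 to −0.32 over the 17 alternatives. Nolc1, a nucleolar scaffold, was at 219.8 CPM in hypoxia and 405 CPM in control, a ratio of 0.543 (0.518 to 0.570). Ncl, the nucleolin gene, was at 1191 CPM in hypoxia and 1924 CPM in control, and Gnl3, or nucleostemin, at 259.8 and 425 CPM. Rrs1, a large subunit assembly factor named for its low ratio and not from the list, was at 27.0 CPM in hypoxia and 72.3 CPM in control, a ratio of 0.373 (0.329 to 0.423). The list was also lower in later bins, and with equal weight to the bins the log2 ratio of Nolc1 was −0.81, beside −0.85 when cells were pooled. Myc, an activator of this programme, was at 71.4 CPM in hypoxia and 79.3 CPM in control. In globin-low cells the same list had a median of −0.27 and no member past the limit. The 80 cytosolic ribosomal protein genes had a median of −0.18 with 3 lower, among them Rpl30 and Rplp2.

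Antigen presentation was the list with the highest median. Of 12 measured MHC class I genes 8 were higher and none lower, against 3.45% of all measured genes higher, and the median log2 ratio was 0.74. H2-D1, one of the classical class I heavy chains (chromosome 17, 35262730 to 35267499), was at 773 CPM in hypoxia and 135 CPM in control, a ratio of 5.72 (5.35 to 6.11). H2-K1, the second classical chain, was at 209 CPM in hypoxia and 91.8 CPM in control, a ratio of 2.28 (2.09 to 2.48). B2m, the shared light chain, was at 1033 CPM in hypoxia and 406 CPM in control, a ratio of 2.54 (2.44 to 2.65). Tapbp, which loads peptide, was at 56.1 CPM in hypoxia and 52.2 CPM in control, a ratio of 1.07 (0.952 to 1.21). Without cells carrying other lineages' markers the log2 ratios of H2-D1, B2m and H2-K1 were 2.44, 1.34 and 1.08, beside 2.43, 1.33 and 1.11 with them. Class I genes are near-identical and vary between animals, and which alleles each library held was not tested, so values of single heavy chains are uncertain.

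Interferon response genes had a median log2 ratio of 0.39. Of 14 measured, 4 were higher and none lower, against 3.45% of all measured genes higher, among them Parp9 at 26.7 CPM in hypoxia and 12.7 CPM in control, Igtp at 21.5 and 10.2 CPM and Ifit2 at 28.7 and 15.6 CPM, which went under the limit in 5 of 17 alternatives. Usp18, an interferon-induced protease that restrains the receptor, lay the other way, at 27.4 CPM in hypoxia and 44.1 CPM in control. Of 36 listed genes 22 were under the minimum, and with no minimum the median was 0.12.

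**Figure D5:**
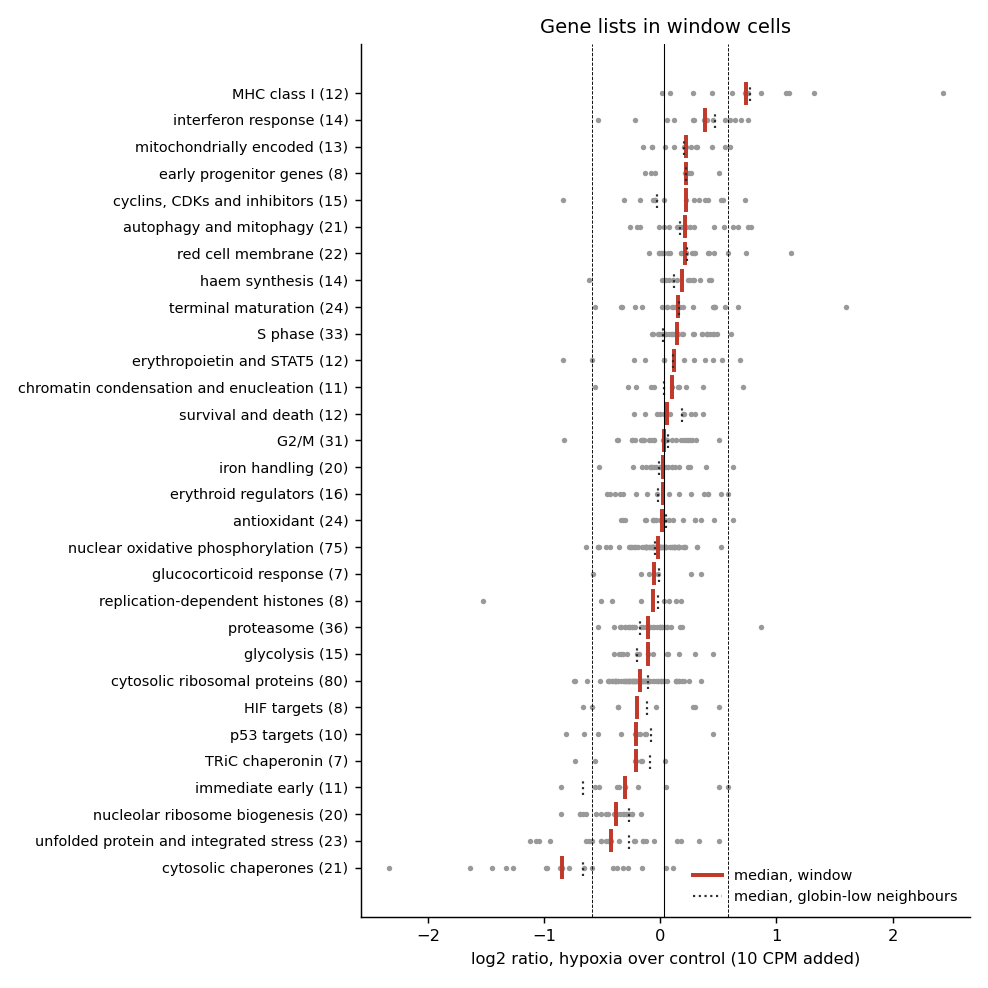
Log2 ratio of hypoxia over control with 10 CPM added (x axis) for each measured member (points) of 30 gene lists (rows, with the number measured), with the median in window cells (red) and in globin-low cells (dotted). The thin line is the median of all measured genes, 0.03, and dashed lines mark 1.5-fold. MHC class I stands at the top with 0.74 and cytosolic chaperones at the bottom with −0.85.

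Cell cycle genes stood near the background in most respects. Of 33 S phase genes 1 was higher and none lower, with a median of 0.14, and of 31 G2/M genes 1 was lower, with a median of 0.03 (−0.02 with TMM factors). Of 15 cyclins, CDKs and their inhibitors Rb1 was higher and Ccnd2 lower. Of all measured genes 3.45% were higher and 2.24% lower. Cenpf, a kinetochore protein, was the lower G2/M gene, at 142 CPM in hypoxia and 259 CPM in control, a ratio of 0.547 (0.515 to 0.581). Rb1, the retinoblastoma tumour suppressor needed for orderly exit from division in erythroblasts, was at 345 CPM in hypoxia and 204 CPM in control, a ratio of 1.69 (1.59 to 1.79), and was past the limit in all 17 alternatives. Its relative Rbl2 was at 31.1 CPM in hypoxia and 18.6 CPM in control. Ccnd3 was at 1608 CPM in hypoxia and 1227 CPM in control, a ratio of 1.31 (1.28 to 1.34), and its log2 ratio of 0.39 became 0.29 with equal weight to the bins. H1f0, the linker histone of non-dividing cells, was at 91.1 CPM in hypoxia and 51.7 CPM in control, a ratio of 1.76 (1.57 to 1.98).

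Targets of the hypoxia-inducible factors did not lie together on the higher side. Of 8 measured, 2 were lower and none higher, against 2.24% of all measured genes lower, and the median log2 ratio was −0.20. The list held 23 genes, and with no minimum level its median was −0.01. Higd1a, a mitochondrial protein, was at 89.3 CPM in hypoxia and 147 CPM in control, a ratio of 0.607 (0.561 to 0.657). P4ha1, a collagen prolyl hydroxylase, was at 22.7 CPM in hypoxia and 39.2 CPM in control, on the limit. Kdm3a, a histone demethylase, was at 35.9 CPM in hypoxia and 22.3 CPM in control, a ratio of 1.61 (1.35 to 1.93), and Pdk1 at 77.9 and 61.3 CPM. None of 15 glycolysis genes passed the limit, with a median of −0.11. Pklr, the red cell pyruvate kinase, was at 269 CPM in hypoxia and 194 CPM in control, and Gapdh at 641 and 820.3 CPM. Hif1a had 171 UMIs in hypoxia and 58 in control and was under the minimum level.

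Autophagy genes included 4 higher members of 21 and none lower, against 3.45% of all measured genes higher, with a median of 0.21. Atg4a, a protease that processes LC3-family proteins, was at 52.7 CPM in hypoxia and 26.5 CPM in control, a ratio of 1.99 (1.697 to 2.34). Map1lc3a, one of those proteins, was at 38.0 CPM in hypoxia and 18.5 CPM in control, and the receptor Optn at 51.0 and 28.4 CPM. The 11 measured immediate early genes of 22 had a median of −0.31, which was −0.04 with no minimum level. Jun was at 23.6 CPM in hypoxia and 50.6 CPM in control, and its log2 ratio of −0.85 became −0.64 without cells carrying other lineages' markers. Fos was at 9.30 CPM in hypoxia and 18.5 CPM in control. Btg2, on the limit, was the higher member. Of 10 p53 targets 2 were lower, Aen and Phlda3, beside 2.24% of all measured genes lower. The 75 nuclear oxidative phosphorylation genes had a median of −0.02 with 1 lower, and the 13 mitochondrially encoded genes 0.23 with 1 higher, mt-Atp8. None of 12 survival genes passed the limit, among them Bcl2l1, an anti-apoptotic gene of late erythroblasts, at 13.0 CPM in hypoxia and 16.9 CPM in control. Of 24 antioxidant genes Nqo1 was higher, at 47.1 CPM in hypoxia and 26.9 CPM in control. The lists for early progenitors (8 measured) and glucocorticoid response (7) had no member past the limit, the proteasome list had 1 higher of 36, and chromatin condensation had 1 higher of 11, H1f0. Of 8 measured replication-dependent histones Hist1h4i was lower, at 7.11 CPM in hypoxia and 39.2 CPM in control.

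The genes with the largest ratios lay outside the erythroid lists for the most part. By the log2 ratio with 10 CPM added, H2-D1 and Tspo2 were followed by Cmas, which activates sialic acid, at 74.9 CPM in hypoxia and 18.6 CPM in control, a ratio of 4.02 (3.35 to 4.86), and Csrp1, a LIM-domain protein, at 127.5 and 41.5 CPM. Srsf5, a splicing factor, was at 701 CPM in hypoxia and 289 CPM in control, a ratio of 2.43 (2.32 to 2.55). Cpne2, Epdr1, Dtx3, Gstp3 and Rhobtb3 had ratios between 2.38 and 2.78. At the other end of the same ranking, Hsph1 was lowest, and Asb17 was at 11.4 CPM in hypoxia and 61.1 CPM in control, and Cwc22, a splicing factor, at 52.9 and 185.5 CPM. Glo1, which detoxifies methylglyoxal, was at 115 CPM in hypoxia and 267 CPM in control, and Fads3 at 33.0 and 83.2 CPM. The ratio of Cwc22 was 0.301 in globin-low, 0.285 in window and 0.277 in globin-high cells, and that of Glo1 0.423, 0.432 and 0.501. The ratio of Cmas did not hold in every stage. It was 2.996 in globin-low cells and 0.939 (0.751 to 1.18) in globin-high cells, which include 42 control cells. All 24 genes named for the highest and lowest ratios were past 1.5-fold in the same direction in each of the 17 alternatives. The alternatives use the same libraries, and whether alleles of the outbred stock differ between the libraries at these genes was not tested.

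Many of these differences were also found one stage earlier. Among 7282 genes measured in both stages, 235 were higher in hypoxia window cells and 209 in hypoxia globin-low cells, with 137 in both, or 58.3% of the window genes and 65.6% of the globin-low genes. Of the lower genes 164 were called in the window and 122 in globin-low cells, with 90 in both, or 54.9% and 73.8%. No gene was called in opposite directions. In globin-low cells 2.96% of 7761 measured genes were higher and 1.69% lower, or 4.65% either way. In globin-high cells 10.7% of 6429 were higher and 3.66% lower, or 14.3% either way, but these rest on 42 control cells, of which 20 had 10000 UMIs or more, and their control globin was far higher, with a median Hba-a1 of 154 CP10K in hypoxia and 597 CP10K in control. Both stages come from the same libraries, so their overlap is no independent check.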

How the data were processed

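Each deposited table gives raw UMI counts by cell and gene, error-corrected by the vendor software. Per the file headers this was BD WTA Rhapsody Analysis Pipeline 1.7.1, with GRCm38 as genome and GENCODE vM19 as annotation. The submitters' processing notes also name Bowtie2. How cells were called is not stated there. The tables held 6406 hypoxia cells with 137504361 UMIs and 3956 control cells with 121415081 UMIs.

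UMIs were summed over member cells and scaled to CPM by their total. With 1 library per group no test was run. Shares carry exact Clopper-Pearson intervals, and ratios exact conditional intervals. The calling step was tested on simulated Poisson counts. Doublets were called with Scrublet in scanpy 1.11.5. Python 3.11.15, numpy 2.4.6, scipy 1.17.1, matplotlib 3.10.9, R 4.3.3 and edgeR 4.0.16 (for TMM factors) were used. Gene positions are from GENCODE vM21 on GRCm38.

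The members and all 31 gene lists were chosen with earlier results of these data known, so they lend no independent support. Genes were named by rule. The first were the 12 highest and 12 lowest ratios among genes at 50 CPM or more in a library. Genes with a cell holding 25% or more of the UMIs, mitochondrial and Y-linked genes, Xist and unnamed gene models were left out of these. Also named were the 3 highest and 3 lowest members per list at 20 CPM or more, and a fixed set of erythroid and stress genes. The 10 genes highest and the 10 lowest in the last bin over the first were named as well. Alternatives covered the cell filters, gate limits, thinning, scaling, weighting of cells and bins, the added CPM and the minimum level.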

Additional observations from a re-analysis of the deposited data

How the results depend on the processing

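No paired analysis was possible because each group had 1 library, and for the same reason no replicate could be left out. The ratio of the window's share of cells, hypoxia over control, lay between 2.365 and 2.511 over its alternatives. The difference in alpha-globin share, hypoxia minus control, was 6.21 percentage points, or 5.63 with a window of 30 to under 150 CP10K and 5.36 with cells thinned to 10000 UMIs. The genes called higher and lower numbered 259 and 168. With 1 CPM added in place of 10, which shrinks the log2 ratios of genes at low levels less, they numbered 565 and 355. The other alternatives gave 197 to 333 higher and 150 to 226 lower genes. TMM and median-of-ratios factors moved log2 ratios by −0.06 and −0.04 and turned the split to 197 higher and 226 lower, and to 220 and 205. Of 30 list medians 2 left their interval with TMM factors, and none did under the other alternatives. That interval is a range of the ratios of the list's members and does not measure counting error. Of 218 named genes 51 left their counting interval in thinned cells and 34 with TMM factors. With 1 CPM added 27 did, and with equal weight to the bins 21. The narrower window and median-of-ratios factors each put 17 outside, and the other alternatives at most 2. No called value of a named gene changed direction. Leaving out shallow cells and cells with other lineages' markers was chosen after seeing the data. Some calls near 1.5-fold went under it: Btg2, P4ha1, Slc6a9 and Ifit2 in 6, 6, 5 and 5 of 17 alternatives. Depth limits the control side, where the window held 206 cells.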

Other observations

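Lfng, a glycosyltransferase that modifies Notch receptors, was the single gene of 3369 at 50 CPM or more in both libraries that stood at least 1.5-fold above both neighbouring stages in both. It was chosen after its values were seen. Its bins in the window held 71.1, 74.1 and 67.4 CPM in hypoxia, and 98.7, 77.8 and 89.95 CPM in control. Globin-low cells had 43.0 CPM in hypoxia and 48.1 CPM in control, and globin-high cells 39.6 CPM in hypoxia and 47.2 CPM in control.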
